A study of Mus musculus with 22 samples.

Results

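The cells described here were plasmacytoid dendritic cells (pDC) of mice, found in single-cell RNA profiles by a few transcripts rather than by clustering. A pDC was a barcode with at least 200 detected genes and at most 25% mitochondrial counts that held at least 1 unique molecular identifier (UMI, a count of captured transcript molecules) of Siglech and at least 1 UMI of Ccr9, Cox6a2, Spib or Tcf4. It held no UMI of Cd3e (T cells), C1qa (macrophages) or Mcpt8 (basophils), and did not hold the B cell genes Cd79b and Ms4a1 together. Of 179929 barcodes in 22 libraries, 95843 passed the gene and mitochondrial limits, and 381 of these were pDC. All but 1 came from solid organs.

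pDC are a small population of dendritic cells, arising in bone marrow and circulating in blood, that carry the endosomal RNA and DNA receptors TLR7 and TLR9 and are known as a rapid source of type I interferon after viral infection. Their identity depends on the E protein TCF4 and its partners, which hold down ID2 and the programme of conventional dendritic cells. Conventional dendritic cells present antigen on MHC class II, and fall into type 1 (cross-presenting, XCR1+ CLEC9A+) and type 2 cells. Mouse pDC carry the lectin-like receptor SIGLEC-H, the chemokine receptor CCR9 and BST2 on their surface.

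Mice carried Prom1-CreERT2, a tamoxifen-inducible recombinase driven from the Prom1 locus, and the Rosa26ZSG reporter, which leaves a green ZsGreen tag in recombined cells and their descendants. Beside these alleles, which the controls also carried, strains were labelled with no Nalcn allele (wt), Nalcn-het (het) or Nalcn-null (null). Nalcn codes for a sodium leak channel, and by the study's methods its conditional allele is deleted by the recombinase. Tissue libraries pooled kidney, liver, lung and stomach with epididymis (males) or uterus (females) from perfused mice of 551 to 654 days (5 wt, 2 het, 2 null, and another 2 whose labels name more than 1 genotype and which entered no group). Sorted ZsGreen-positive blood cells of mice without tumours (ntCZC) gave 10 libraries (2 wt, 4 het, 4 null; 551 to 649 days), and unsorted peripheral blood mononuclear cells (PBMC) of a wt mouse of 120 days gave 1. Organs were not told apart among barcodes here, so no pDC had an organ of origin. Libraries were the replicates, but no label names the mouse, and tissue wt replicates 1 and 2 and tissue het replicates 1 and 2 share sex and age, so p-values may measure spread within a mouse. Some ntCZC libraries also share genotype, sex and age with tissue libraries, such as replicate 3 of ntCZC wt and of tissue wt (males of 608 days). Blood and organs may therefore come from the same mice.

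Library totals ran from 161541 to 2600526 UMIs in ntCZC and from 8571019 to 139793927 in the grouped tissue libraries, with 11 to 578 and 287 to 18242 passing barcodes. Nalcn could not check the genotypes, since passing cells held 0 to 15 Nalcn UMIs in any library, these 3′ counts need not fall in the deleted part, and the 381 pDC held none. Transcripts of Prom1, whose locus drives the recombinase, came to at most 8 UMIs over the pDC of any library. Tissue null replicate 3, labelled female, held Xist at 1347 CPM (UMIs scaled to a total of 1000000) together with 4 Y-linked genes at 31.2 CPM, whereas Y-linked genes reached at most 0.117 CPM in the other tissue libraries labelled female, so its values are also given apart below. Of the 381 pDC barcodes, 5 also occurred among the passing barcodes of another library, and none was a pDC in both.

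What the selection used is described and not tested. Among the 381 cells, 367 held Tcf4, 221 Ccr9, 211 Cox6a2 and 193 Spib, and 109 held all 4. The median pDC held 4 Siglech UMIs of 3107 UMIs in all, and 102 cells held a single Siglech UMI. Pooled over the cells of each library (8 tissue libraries with at least 10 pDC), the Siglech level was 888 CPM at the lowest (wt replicate 2), 1486 at the median and 2574 at the highest (het replicate 2). Ccr9 ran from 415 through 664 to 920 CPM, Cox6a2 from 301 through 549 to 1126, Spib from 271 through 358 to 845, and Tcf4 from 850 through 1293 to 2081. Just inside the limit, 36 tissue cells held 1 Siglech UMI and 1 supporting UMI, and 13.9% of these had 3 or more of the 12 identity markers defined next. Just outside it, 69 tissue barcodes held Siglech with no supporting gene, and 8.7% of these had 3 or more. Another 229 tissue barcodes with Siglech held an exclusion gene, and 22.7% of these had 3 or more (9.5% after thinning to 1000 UMIs).

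The name was then checked against 12 pDC markers that chose no cell (Ly6d, Klk1, Klk1b27, Pacsin1, Runx2, Cd209d, Atp1b1, Rpgrip1, Smim5, Cd300c, Klra17 and Bst2). Of the 380 pDC in tissue, 320 (84.2%) held 3 or more of them. The share was 94.9% of the 297 cells with Ccr9, Cox6a2 or Spib and 45.8% of the 83 supported by Tcf4 alone. It was 5.34% in type 1 dendritic cells (DC), 9.83% in type 2 DC, 9.18% in B cells and 3.12% in endothelial cells, at median depths of 4446, 3671, 2146 and 2168 UMIs against 3106 in pDC. With every cell thinned to 1000 UMIs, which left out 22 pDC, the shares were 75% and 16.7% in the 2 kinds of pDC and between 0.206% and 0.489% in those 4 classes. Fewer of the cells supported by Tcf4 alone therefore held these markers. Of them 67.5% held Bst2 and 26.5% held Ly6d, against 96% and 74.4% of the other pDC, at a median of 1 Siglech UMI.

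**Figure D1:**
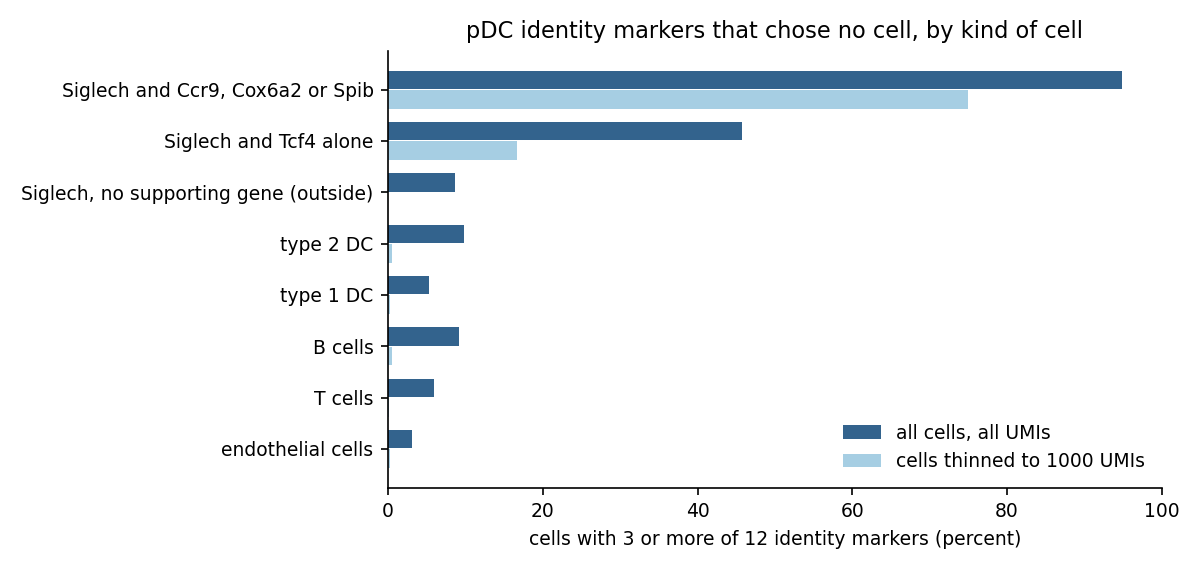
Share of cells (percent, horizontal axis) with 3 or more of 12 pDC markers that the selection did not read, for each kind of tissue cell; dark bars use all UMIs, light bars cells thinned to 1000 UMIs. Cells with Siglech and Ccr9, Cox6a2 or Spib reach 94.9% and 75%, and type 1 DC, type 2 DC, B cells and endothelial cells stay under 10% before thinning.

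Signals of other cells were present among the pDC. Both endothelial genes Pecam1 and Cdh5 were found in 51 of 380 tissue pDC (13.4%). Of these 51, 30 were also flagged as doublets by their Scrublet score, against 118 of all 380 (31.1%). The flags went to the highest scores of each library up to a share set beforehand (1.48% to 22.3%). They left 77967 of 93055 passing tissue barcodes unflagged. In wt replicate 4, 33 of 58 pDC were flagged. The pan-leukocyte gene Ptprc was found in 315 cells (82.9%), but in 60.8% of those 51. In null replicate 2 only 3 of 12 pDC held Ptprc (25%), at a median of 920.5 UMIs. In the other grouped tissue libraries with pDC the share ran from 81.2% (het replicate 2) to 91.9% (wt replicate 1). In classes that should lack Siglech, 66 of 12089 endothelial cells (0.546%) and 12 of 3625 T cells (0.331%) held it with a supporting gene. The 66 include the 51 pDC with Pecam1 and Cdh5, so the endothelial share is no background rate apart from them. These are all barcodes with the genes of the class, read without regard to Siglech, with a median depth of 2242 UMIs in the endothelial cells and of 5386 in those that held Siglech. For the shares of cells with a UMI below, cells with Siglech or already placed in a DC or B cell class were left out, which left 11566 endothelial cells and 3608 T cells. Scgb1a1, a lung secretory cell gene, was found in 63.2% of pDC, 64.8% of type 1 DC and 62.8% of endothelial cells. Counts of the gene lists without the 51 cells follow the class comparisons.

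Promoter sequence is shown for 4 genes that mark these cells, because TCF4 is an E protein and E proteins bind E-box letters of the form CANNTG. The windows are from RefSeq (GRCm38.p6) and run from 250 bases before to 50 after the annotated start, 5′ to 3′ on the gene's strand. Capitals mark CAGGTG or its reverse complement CACCTG. Siglech and Ccr9, which chose the cells, lie at chr7:55767934-55768233 (plus strand) and chr9:123766961-123767260 (plus strand). Klk1, a kallikrein protease, lies at chr7:44225110-44225409 (plus strand) and Lair1, an inhibitory collagen receptor, at chr7:4063155-4063454 (minus strand).
Siglech: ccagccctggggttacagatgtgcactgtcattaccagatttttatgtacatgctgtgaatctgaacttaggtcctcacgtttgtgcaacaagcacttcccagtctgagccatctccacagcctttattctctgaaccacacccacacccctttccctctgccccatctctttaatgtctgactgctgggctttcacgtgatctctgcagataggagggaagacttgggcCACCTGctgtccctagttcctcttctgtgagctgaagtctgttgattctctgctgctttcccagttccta
Ccr9: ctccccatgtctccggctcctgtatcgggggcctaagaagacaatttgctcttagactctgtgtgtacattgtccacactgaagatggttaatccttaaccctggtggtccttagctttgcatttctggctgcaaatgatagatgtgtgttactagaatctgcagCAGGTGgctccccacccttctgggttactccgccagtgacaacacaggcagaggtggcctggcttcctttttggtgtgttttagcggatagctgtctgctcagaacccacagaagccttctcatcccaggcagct
Klk1: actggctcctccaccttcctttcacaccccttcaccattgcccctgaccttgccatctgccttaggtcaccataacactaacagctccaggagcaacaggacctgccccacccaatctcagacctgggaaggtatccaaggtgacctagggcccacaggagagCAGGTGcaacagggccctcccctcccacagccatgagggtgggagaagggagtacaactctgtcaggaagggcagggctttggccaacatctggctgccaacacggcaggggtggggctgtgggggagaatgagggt
Lair1: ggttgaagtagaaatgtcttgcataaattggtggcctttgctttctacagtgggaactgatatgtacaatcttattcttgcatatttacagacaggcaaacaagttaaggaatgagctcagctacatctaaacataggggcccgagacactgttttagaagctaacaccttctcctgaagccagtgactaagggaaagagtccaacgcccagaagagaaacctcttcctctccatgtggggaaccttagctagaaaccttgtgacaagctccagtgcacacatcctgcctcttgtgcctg
The windows of Siglech, Ccr9 and Klk1 each held 1 match, beginning 20, 85 and 87 bases before the start, and the Lair1 window held none. The windows of Spib, which chose the cells, and Runx2 were read too and also held none, and are not printed. Among 26 genes listed as pDC identity genes, 22 had a window and 8 of these (36.4%) held CAGGTG on either strand, against 22.6% of all 27025 genes with a window (20.2% of 32851 windows). CANNTG in any form is in 72.3% of windows. A match is a description of the letters and says nothing of binding.

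pDC made up 332 of 72758 passing cells in the 9 tissue libraries with a group (0.456%, 95% Clopper-Pearson interval 0.409 to 0.508, which like the limits below covers counting error only). In wt libraries the shares were 0.623%, 0.718%, 0.375%, 0.444% and 0% in replicates 1 to 5, the last with 287 passing cells only. In het replicates 1 and 2 they were 0.400% and 0.395%. Null replicates 2 and 3 gave 0.138% and 0.288%. The 2 null libraries lay below the 4 larger wt libraries and above wt replicate 5. The mean share was 0.432 ± 0.278% (SD, n = 5) in wt, and 0.305 ± 0.123% (n = 4) over het and null libraries together. They differed by -0.127 percentage points (exact two-sided permutation test, p = 0.437, smallest possible 0.00794), which is within the spread of libraries. With a library left out this difference was -0.055 without wt replicate 2, -0.0707 without null replicate 2, -0.0789 without wt replicate 1 and -0.235 without wt replicate 5 (exact permutation p = 0.0857, smallest possible 0.0286). Against wt, the difference was -0.0343 points in het (exact permutation p = 0.857, smallest possible 0.0476) and -0.219 in null (exact permutation p = 0.381), so neither was larger than the spread. The null difference ran from -0.144 points without null replicate 2 to -0.327 without wt replicate 5 (exact permutation p = 0.133, where the smallest possible of 0.0667 could not pass). It was -0.147 without wt replicate 2, -0.171 without wt replicate 1 and -0.294 without null replicate 3. These are shares of dissociated cells, in which fewer pDC and more of other cells cannot be told apart. Counted among pDC, type 1 and type 2 DC only, pooled wt libraries held 20.6% pDC, pooled het libraries 20.2% and pooled null libraries 14.9%, values in which the largest libraries weigh most. As means over libraries the shares were 15.6 ± 9.37% (n = 5), 19.9 ± 6.96% (n = 2) and 14.4 ± 3.85% (n = 2), with het above wt by 4.27 points (exact permutation p = 0.619) and null at -1.23 points from wt (exact permutation p = 0.905). The wt mean includes wt replicate 5, which had 0 pDC among only 5 such cells. Over libraries with at least 10 of them, which leaves that library out, the wt mean was 19.5 ± 3.94% (n = 4), and the differences were 0.372 points for het (exact permutation p = 1) and -5.13 for null (exact permutation p = 0.2, smallest possible 0.0667 in both).

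No pDC was found in ntCZC. None of the 2109 passing cells was a pDC, which allows a share of up to 0.142%, and no Siglech UMI was found in any of the 2501 ntCZC barcodes, passing or not. The mean over libraries was 0% in ntCZC (n = 10) and 0.376 ± 0.221% (n = 9) in tissue, a difference of -0.376 points (exact two-sided permutation test over libraries, p = 0.000119, smallest possible 1.08e-05). The test takes each 0 as measured, but each ntCZC library alone held too few cells to bound its share below the tissue mean (limits of 0.519% to 27.3%), and of the limits over pooled libraries that of all 10 (0.142%) and that of the het libraries (0.33%) lie below it. The permutation did not pair blood and tissue libraries that may come from the same mouse, and treated all libraries as independent. ntCZC was sorted for ZsGreen and taken from blood, so the sort and the source of the cells cannot be told apart. The ntCZC libraries also held few dendritic cells of any kind, with 0 pDC among 23 pDC, type 1 and type 2 DC together, so the share of pDC among dendritic cells was not measurable there. Het and null ntCZC libraries gave 0 of 909 and 0 of 698 cells, which allow shares of up to 0.33% and 0.43%. With no Siglech UMI in either, a difference between them could not be measured. In PBMC, 1 of 679 cells was a pDC (0.147%, interval 0.00373 to 0.818). That cell held 11 Siglech UMIs, which were all the Siglech UMIs of its library, all 4 supporting genes, and 9 of the 12 identity markers.

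**Figure D2:**
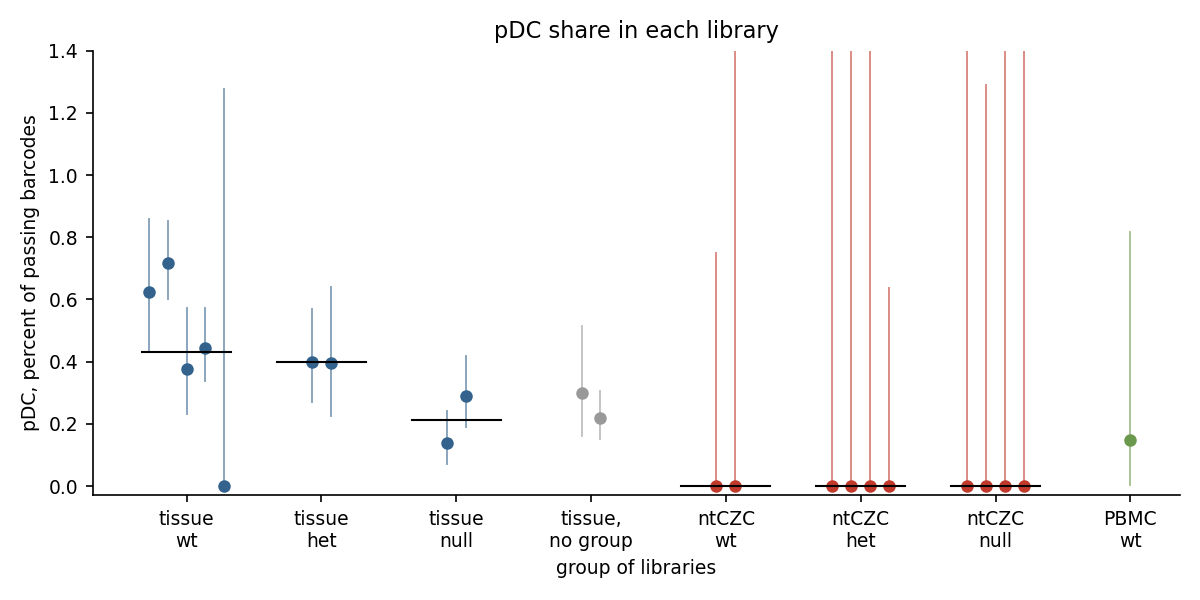
pDC as a percentage of passing barcodes (vertical axis) in each library, by group; points are libraries in order of replicate number, vertical lines are 95% Clopper-Pearson intervals (running off the axis at the top where libraries hold few cells), and black lines are group means. All 10 ntCZC libraries lie at 0, and the grouped tissue libraries lie between 0 and 0.718%.

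To ask which genes set pDC apart from the cells nearest to them, counts were summed over the pDC of each library and compared, within the same library, with type 1 DC (Xcr1 or Clec9a with Wdfy4, Naaa, Batf3 or Flt3), type 2 DC (Cd209a with Flt3, Clec10a or Mgl2, without Xcr1 or Clec9a) and B cells (Cd79a, Cd79b and Ms4a1), all chosen by transcripts and all without Siglech. The fit used the 8 tissue libraries with at least 10 pDC (wt 1 to 4, het 1 and 2, null 2 and 3). Genes that chose either class of a pair were left out of its test. Against type 1 DC, 387 of 3611 genes tested were higher in pDC (10.7%) and 401 lower (11.1%), by edgeR's quasi-likelihood test with the library as a term and an adjusted p under 0.05. Against type 2 DC, 325 of 2014 were higher (16.1%) and 306 lower (15.2%). Against B cells, 420 of 3900 were higher (10.8%) and 395 lower (10.1%). Without wt replicate 2, the library with most pDC (131), 526 genes were called against B cells, of which 507 were among the 815 called with it. Without null replicate 3, the library with mixed sex signals, 692, 572 and 685 genes were called in the 3 comparisons, against 788, 631 and 815 with it. Levels below are CPM of the summed counts per library (lowest, median and highest), over these 8 libraries or, for B cells, also wt replicate 5, and log2 differences are fitted values with their SE.

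Genes of pDC identity were high against every neighbour. Of 26, 18 passed the filter on low counts against type 1 DC and all 18 were called higher, as were 15 of 16 against type 2 DC (not Klra17) and 16 of 18 against B cells (not Ly6d or Blnk). Many of them passed the filter through their level in pDC, so these counts describe the list and are no support for it. Bst2 codes for tetherin, a virus-restricting membrane protein that mouse pDC carry at rest. It ran from 1243 through 2100 to 3806 CPM in pDC, but from 81.7 through 113 to 379 in type 1 DC and from 85.8 through 138 to 485 in type 2 DC. No pDC library overlapped either class, and the log2 difference was 3.76 (SE 0.27, edgeR adjusted p = 1.38e-07) against type 1 DC. Klk1 ran from 161 through 277 to 575 CPM in pDC and up to 22 in type 1 DC, with a log2 difference of 4.53 (SE 0.43, edgeR adjusted p = 2.36e-06). Lair1 lay between 225 and 511 CPM in pDC and between 8.76 and 33.4 in type 1 DC. Its log2 differences were 4.06, 3.96 and 4.77 against type 1 DC, type 2 DC and B cells.

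The steepest differences named the same few genes in more than one comparison. Cd209d, a C-type lectin, was detected at 61.8 through 314 to 634 CPM in pDC and in at most 1.95 CPM of any type 1 DC library. Its fitted log2 differences of 8.48 against type 1 DC and 7.88 against B cells rest on near-absent counts there, while against type 2 DC (7.96 to 75.5 CPM) it was 2.72. Cd7, a lymphoid surface protein, was 5.50 higher on the log2 scale than in type 1 DC and 5.51 higher than in B cells. Lrp8, a lipoprotein receptor, was 5.07 and 5.83 higher in those comparisons, and Prkca, a protein kinase C, 5.29 and 1.77. Rpgrip1 was 4.32 higher than in type 2 DC, and so were P2ry14, a receptor for nucleotide sugars (4.24), and the inhibitory receptor gene Lag3 (3.95). Against B cells, Ppfia4 (5.35), Smim5 (5.25), the killer-cell lectin Klrd1 (4.73) and the lectin Clec10a (4.65) completed the largest increases. Klrd1 did not differ from type 2 DC by the test (-0.31, SE 0.25, edgeR adjusted p = 0.403). Klrd1 against type 2 DC aside, each of these differences had the same direction in 8 of 8 libraries.

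The largest decreases were genes of the compared class. Against type 1 DC they were Ifi205 (-3.14), the protease inhibitor gene Cst3 (-2.82), Sept3 (-2.69) and the lysosomal thioesterase gene Ppt1 (-2.48). Cst3 averaged 15586 CPM in type 1 DC. It was also lower than in type 2 DC (-1.12), where wt replicate 1 went the other way, and 1.75 higher than in B cells. Against type 2 DC the largest decreases were Clec4b1 (-4.69), Tnip3 (-4.56), the chemokine gene Ccl17 (-3.64) and Wfdc17 (-3.32). Against B cells they were the immunoglobulin light chain Igkc (-5.81), the IgM receptor gene Fcmr (-5.28), and the B cell factors Ikzf3 (-5.18) and Pax5 (-5.11).

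Transcription factors of the pDC programme were among the genes that differed. Of 15 tested against type 1 DC, 7 were higher and 3 lower. Of 11 against type 2 DC 5 were higher and 1 lower, and of 12 against B cells 6 were higher and 2 lower. Over all genes tested 10.7%, 16.1% and 10.8% were higher and 11.1%, 15.2% and 10.1% lower. The few lower genes therefore say nothing about the list. Genes such as Runx2 were low in the other classes and could pass the filter on low counts through pDC. The counts of higher factors therefore describe the list and are no support for it. Irf8, which type 1 DC and pDC are both known to need, ran from 789 through 1753 to 3012 CPM in pDC, 655 through 993 to 1533 in type 1 DC, 139 through 242 to 452 in B cells and 39.8 through 59.8 to 105 in type 2 DC. It was therefore far above type 2 DC in every library (log2 difference 4.55, SE 0.23, edgeR adjusted p = 2.12e-08) and close to type 1 DC (0.55, SE 0.18, edgeR adjusted p = 0.0402), where the groups overlapped. Runx2, a factor of pDC exit from bone marrow, ran from 178 through 410 to 712 CPM in pDC and no higher than 68.1 in any other class compared. Its log2 differences were 4.00, 3.50 and 4.51. Bcl11a, which acts upstream of Tcf4, was 2.90, 1.87 and 1.28 higher than in type 1 DC, type 2 DC and B cells. Zeb2 was 1.94 higher than in type 1 DC and 0.90 higher than in B cells, but 0.32 above type 2 DC without passing the test (SE 0.16, edgeR adjusted p = 0.14).

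Id2, the inhibitor of E proteins, was lower in pDC than in type 1 DC. It ran from 27.4 through 222 to 430 CPM in pDC and from 758 through 937 to 1119 in type 1 DC, without overlap (log2 difference -2.11, SE 0.25, edgeR adjusted p = 2.47e-05). Against type 2 DC the difference was -0.56 (SE 0.20, edgeR adjusted p = 0.0458) with 2 libraries going the other way. Zbtb46, a factor of conventional dendritic cells, and Irf5 were also lower than in type 1 DC, by log2 values of -1.27 and -0.96.

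**Figure D3:**
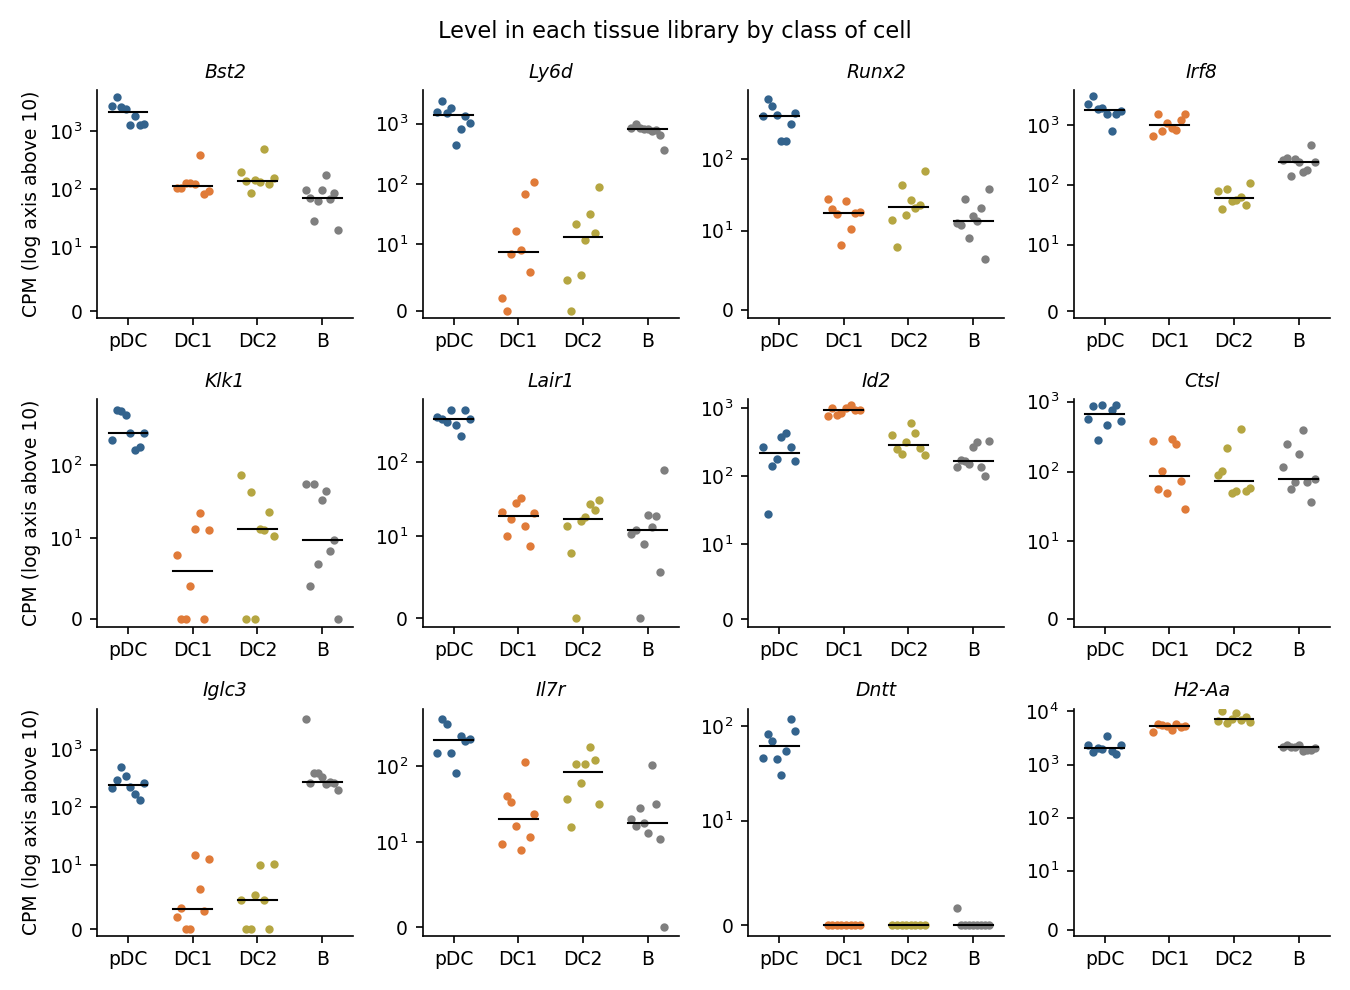
Level (CPM of summed counts, log axis above 10) of 12 genes in pDC, type 1 DC (DC1), type 2 DC (DC2) and B cells; points are tissue libraries and black lines are medians. Bst2, Runx2, Klk1, Lair1 and Dntt in pDC do not overlap any other class shown, Ly6d and Iglc3 are shared with B cells, Irf8 with type 1 DC, and H2-Aa is lower than in both DC classes.

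Some inhibitory and uptake receptors of the surface were called higher against each class, and some were lower than in type 2 DC or B cells. Of 9 tested against type 1 DC, 6 were higher and none lower. Of 10 against type 2 DC 5 were higher and 3 lower, and of 12 against B cells 7 were higher and 2 lower. Over all genes tested 10.7%, 16.1% and 10.8% were higher and 11.1%, 15.2% and 10.1% lower. Genes such as Ly6c2 were low in DC and could pass the filter on low counts through pDC. The counts of higher genes therefore describe the list and are no support for it. Ly6c2, a surface protein also found on monocytes, ran from 481 through 810 to 979 CPM in pDC and up to 62.4 in type 1 DC and 105 in type 2 DC (log2 differences 4.61 and 4.47). Tyrobp, the adaptor DAP12 through which SIGLEC-H signals, ran from 1737 through 2744 to 3449 CPM and was 1.58 higher than in type 1 DC, 0.65 higher than in type 2 DC and 3.07 higher than in B cells. Ptprs, a receptor phosphatase, was 2.36, 2.12 and 3.58 higher. The genes lower than in type 2 DC were the inhibitory receptors Fcgr2b (-1.67) and Cd300a (-1.30) and the Fc receptor chain gene Fcer1g (-0.78), and those lower than in B cells were Cd2 (-2.61) and Cd274 (-1.33), which codes for PD-L1.

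Chemokine receptors and homing genes differed in both directions. Of 10, 11 and 12 tested against type 1 DC, type 2 DC and B cells, 4, 4 and 5 were higher and 0, 5 and 3 lower. Over all genes tested 10.7%, 16.1% and 10.8% were higher and 11.1%, 15.2% and 10.1% lower. The 0 of 10 lower than in type 1 DC therefore says nothing about the list. Selplg, which codes for a ligand of P-selectin, was 1.20, 1.24 and 2.96 higher on the log2 scale. Ccr2, which guides cells out of bone marrow, was 3.39 above B cells and did not pass the test against type 1 DC (-0.51, edgeR adjusted p = 0.149) or type 2 DC (-0.43, edgeR adjusted p = 0.0568). Ccr7, the receptor for migration to lymph nodes, was lower than in type 2 DC (-2.06) and B cells (-2.39).

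Receptors of nucleic acids were thinly sampled, while their helpers were well measured. Tlr7 was found in 16.3% of 380 tissue pDC (3.91% after thinning), against 3.92% of type 1 DC, 2.22% of type 2 DC, 6.66% of B cells and 1.74% of endothelial cells (0.78%, 0.326%, 2.29% and 0.51% thinned). Its level ran from 0 through 46.2 to 110 CPM over libraries and it was not tested in the fits. Tlr9 was found in 4 pDC (1.05%) and 8 type 2 DC (1.27%), too few for a difference to be measurable at this depth. Tlr12 was found in 10% of pDC and 10.2% of type 1 DC, but in 0.475% of type 2 DC. Of the listed sensing genes, 2 of 12 were higher and 2 lower than in type 1 DC, 4 of 6 higher than in type 2 DC, and 4 of 10 higher than in B cells. Over all genes tested 10.7% were higher and 11.1% lower than in type 1 DC. The counts there lay near these shares and say nothing about the list. Against type 2 DC and B cells 16.1% and 10.8% of all genes tested were higher. Ctsl, the protease cathepsin L, ran from 282 through 667 to 905 CPM in pDC, with log2 differences of 2.32, 2.62 and 2.31. Slc15a4, an endolysosomal transporter needed for TLR7 and TLR9 signalling, was 1.75, 0.93 and 1.02 higher. Unc93b1, the chaperone of these receptors, was 0.56 higher than in type 2 DC and 0.72 higher than in B cells, and 0.37 above type 1 DC without passing the test (edgeR adjusted p = 0.0948). Tlr3, the receptor for double-stranded RNA, was lower than in type 1 DC (-2.34).

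Interferon itself was not seen. None of 19 type I and type III interferon genes had a UMI in the tissue pDC, whose 1656489 UMIs allow a level of up to 1.81 CPM for each. Irf7, the factor that amplifies interferon genes, was found in 29.2% of pDC, at 15 through 81.7 to 220 CPM, and was 0.74 above type 1 DC on the log2 scale without passing the test. It was highest in wt replicate 2, where type 1 DC (225 CPM), type 2 DC (180) and B cells (79) were also at their highest. The summed level of 24 interferon-stimulated genes was likewise highest in that library, at 6051 CPM in pDC, 4115 in type 1 DC and 6194 in type 2 DC. Apart from Bst2, the called genes of that list were Ifi27l2a (1.26) and Phf11b (-0.92) against type 1 DC, Ifitm3 (-2.36) against type 2 DC, and Stat2 (1.69) against B cells.

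Genes of antigen presentation on MHC class II were lower than in both kinds of dendritic cell. Against type 1 DC 9 of 13 tested were lower and none higher, and against type 2 DC 9 of 10 were lower and none higher. Over all genes tested 11.1%, 15.2% and 10.1% were lower than in type 1 DC, type 2 DC and B cells. H2-Aa, a chain of the MHC class II molecule I-A, ran from 1578 through 2015 to 3383 CPM in pDC, 4128 through 5284 to 5859 in type 1 DC and 6089 through 7067 to 10323 in type 2 DC. The log2 differences were -1.47 (SE 0.18, edgeR adjusted p = 2.28e-05) and -1.91 (SE 0.14, edgeR adjusted p = 4.66e-07), and no libraries overlapped. Ciita, the master regulator of these genes, had log2 differences of -1.44 and -1.57, and Cd74, the invariant chain, of -1.33 and -1.84. The level in pDC was close to that of B cells, where H2-Aa ran from 1808 through 2156 to 2331 CPM and the difference did not pass the test (-0.16, SE 0.15, edgeR adjusted p = 0.519). Against B cells 4 of 13 were lower, among them H2-Ob (-2.64) and H2-DMb2 (-2.63), and H2-DMb1 was 1.00 higher.

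Several lymphoid genes were found in pDC. The rule left out only barcodes with both Cd79b and Ms4a1, and of 381 pDC 25 held Cd79b and 15 held Ms4a1. B lineage genes summed to 10819 CPM in the pDC of wt replicate 4 and to 1604 to 4299 CPM in the other libraries. In wt replicate 4, 7 of 58 pDC held Cd79b and 6 held Ms4a1. Some lymphoid genes, such as Iglc3 and Ly6d, were near absent in DC and passed the filter on low counts through pDC. The counts against DC therefore describe the list and are no support for it. Of 18 B lineage genes, 7 passed the filter against type 1 DC and all were higher, as were 5 of 6 against type 2 DC, whereas against B cells 7 of 12 were lower and only Il7r was higher. Dntt, which codes for terminal transferase, the enzyme that adds bases at antigen receptor joints, was not tested in the fits. It was found in 68 of 380 pDC (17.9%, 9.78% after thinning), against 1 of 918 type 1 DC, 0 of 631 type 2 DC (which allows up to 0.475% of cells with a UMI, not of cells expressing the gene), 1 of 3531 B cells and 1 of 3608 T cells. Its level was 30.1 through 62.3 to 120 CPM, above 0 in all 8 libraries, and it was in 21.9% of pDC with Ccr9, Cox6a2 or Spib and 3.61% of those with Tcf4 alone. Rag1 and Rag2, the recombinase genes, had no UMI in pDC. Iglc3, a lambda light chain constant region, was found in 41.8% of pDC, 47.1% of B cells and 1.43% of type 2 DC, and its level of 135 through 248 to 493 CPM overlapped that of B cells (log2 difference -0.89, SE 0.35, edgeR adjusted p = 0.0795). It lay 4.88 above type 1 DC and 5.11 above type 2 DC. Ly6d, a marker of early lymphoid progenitors, was shared with B cells in the same way (0.40, SE 0.19, edgeR adjusted p = 0.15) and was 5.60 and 5.51 above type 1 and type 2 DC.

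Immunoglobulin genes were also found in cells that should lack them. Igkc was found in 53.7% of pDC, 53% of T cells and 36.1% of endothelial cells (30.7%, 32.7% and 21.5% after thinning), so its share in pDC was no higher than in T cells after thinning, and its highest pDC level of 7517 CPM in wt replicate 4 came with 2684 and 5697 CPM in type 1 and type 2 DC of that library. Ighm was found in 75% of pDC, 38.3% of type 1 DC and 13.6% of endothelial cells. It ran from 400 through 620 to 913 CPM in pDC and up to 200 in type 1 DC (log2 difference 2.24) and was lower than in B cells (-2.60, SE 0.25, edgeR adjusted p = 5.43e-07). Il7r, the interleukin-7 receptor, was found in 41.6% of pDC, 43.8% of T cells and 4.19% of B cells, and was 2.70 above both type 1 DC and B cells. Cd4 and Cd8b1 were found in 14.5% and 16.3% of pDC, at shares close to those of T cells (13.9% and 16.2%), although no pDC held Cd3e by selection. In type 1 DC the shares were 1.2% and 0.545%, and in endothelial cells 0.96% and 0.571%. The null replicate 2 pDC, 12 cells of a median of 920.5 UMIs, held no UMI of either gene or of Tlr7.

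Of 16, 13 and 17 genes of the secretory pathway tested, 1, 5 and 2 were higher and 2, 1 and 2 lower. Over all genes tested 10.7%, 16.1% and 10.8% were higher and 11.1%, 15.2% and 10.1% lower, so apart from the 5 of 13 against type 2 DC the counts lay near or under the background and say nothing about the list. Xbp1, the factor that expands the endoplasmic reticulum, was higher in all 3 comparisons (0.94, 1.30 and 0.81), and Sdf2l1 was lower than in type 1 and type 2 DC (-1.32 and -1.06). No proliferation gene was called higher in any of the 3 comparisons. Mki67 was found in 4.47% of pDC (2.23% thinned) against 18.2% of type 1 DC (7.69%) and 11.4% of B cells (5.75%), and 2.69% of pDC with Ccr9, Cox6a2 or Spib held it against 10.8% of those with Tcf4 alone. Birc5 and Pclaf were lower than in type 1 DC (-1.69 and -1.63). Immediate early and heat shock genes, which rise during dissociation, gave 3 higher and none lower of 20 against type 1 DC (Klf2, Dnajb1 and Jund), and 1 higher and 5 lower against type 2 DC, with Dusp1 at -1.66. These counts lay near or under the shares over all genes given above and say nothing about the list.

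Endothelial markers moved with the comparisons. All 8 tested against type 1 DC were higher in pDC, as were 3 of 3 against type 2 DC and 4 of 9 against B cells. Their summed level ran from 135 to 1899 CPM over the pDC of libraries, lowest in wt replicate 3 and highest in wt replicate 1. Cdh5 was 2.03 and 2.41 above type 1 and type 2 DC. With the 51 pDC that held Pecam1 and Cdh5 left out, a choice made after the data were seen, 1 endothelial marker passed the filter against type 1 DC and none against type 2 DC, with 0 called, and 4 of 7 were lower than in B cells. In the same cells the identity list gave 18 of 18, 12 of 13 and 16 of 18 higher and MHC class II 9 of 13 and 9 of 10 lower than in type 1 and type 2 DC. In these fits 9.69%, 15.4% and 9.99% of all genes tested were higher and 8.7%, 15.3% and 8.13% lower than in type 1 DC, type 2 DC and B cells, and small list counts near these shares say nothing about a list. Other counts were as follows. Against B cells 2 of 13 MHC class II genes were lower in place of 4. Proliferation genes gave 0 lower of 9 against type 1 DC, where Birc5 (-1.34, edgeR adjusted p = 0.0981) and Pclaf (-1.29, edgeR adjusted p = 0.101) lost their calls, and 0 of 8 against B cells. Secretory genes gave 2 higher and 2 lower of 16 against type 1 DC, and 6 higher and 0 lower of 11 against type 2 DC, where Sdf2l1 did not pass the filter on low counts. Of 14 transcription factors 6 were higher and 2 lower than in type 1 DC. Among those named above, Irf5 lost its call there (-0.73, edgeR adjusted p = 0.0617), Id2 lost its call against type 2 DC (-0.32, edgeR adjusted p = 0.225), and Zbtb46 was not tested. Against B cells 7 of 12 were higher and 1 lower. Sensing genes gave 3 higher and 1 lower of 10 against type 1 DC. Interferon-stimulated genes gave 2 higher and 0 lower of 7 against type 1 DC, where Phf11b lost its call (-0.71, edgeR adjusted p = 0.121). They gave 2 higher and 1 lower of 4 against type 2 DC, and 1 higher of 5 against B cells, where Stat2 was not tested. Surface receptors gave 5 higher and 2 lower of 9 against type 2 DC, where Fcgr2b was not tested, and 6 higher and 3 lower of 12 against B cells. Homing genes gave 4 higher and 4 lower of 10 against type 2 DC and 6 higher and 3 lower of 11 against B cells. Cd209d was not tested against type 2 DC. Immediate early and heat shock genes gave 2 higher of 20 against type 1 DC, where Dnajb1 lost its call (1.01, edgeR adjusted p = 0.106), and 0 of 20 against B cells. Leaving out these cells reads Pecam1 and Cdh5 only, so the fall of these 2 endothelial markers is built in. The other endothelial markers were not read by that choice, and the cause of their change was not tested. Cells with Pecam1 and Cdh5 were left out of the pDC only, while the compared classes kept theirs. Endothelial markers lower in pDC in these fits, such as the 4 of 7 against B cells, are therefore not read as a difference between the classes. Other lists with high sums in single libraries were monocyte and neutrophil markers (1376 to 10895 CPM, highest in wt replicate 3), epithelial markers (192 to 31544, highest in het replicate 1), and red cell markers (137 to 7755, highest in wt replicate 3). Their part in the results was not tested. Of 10 T and NK cell markers the sum ran from 54.8 to 460 CPM.

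**Figure D4:**
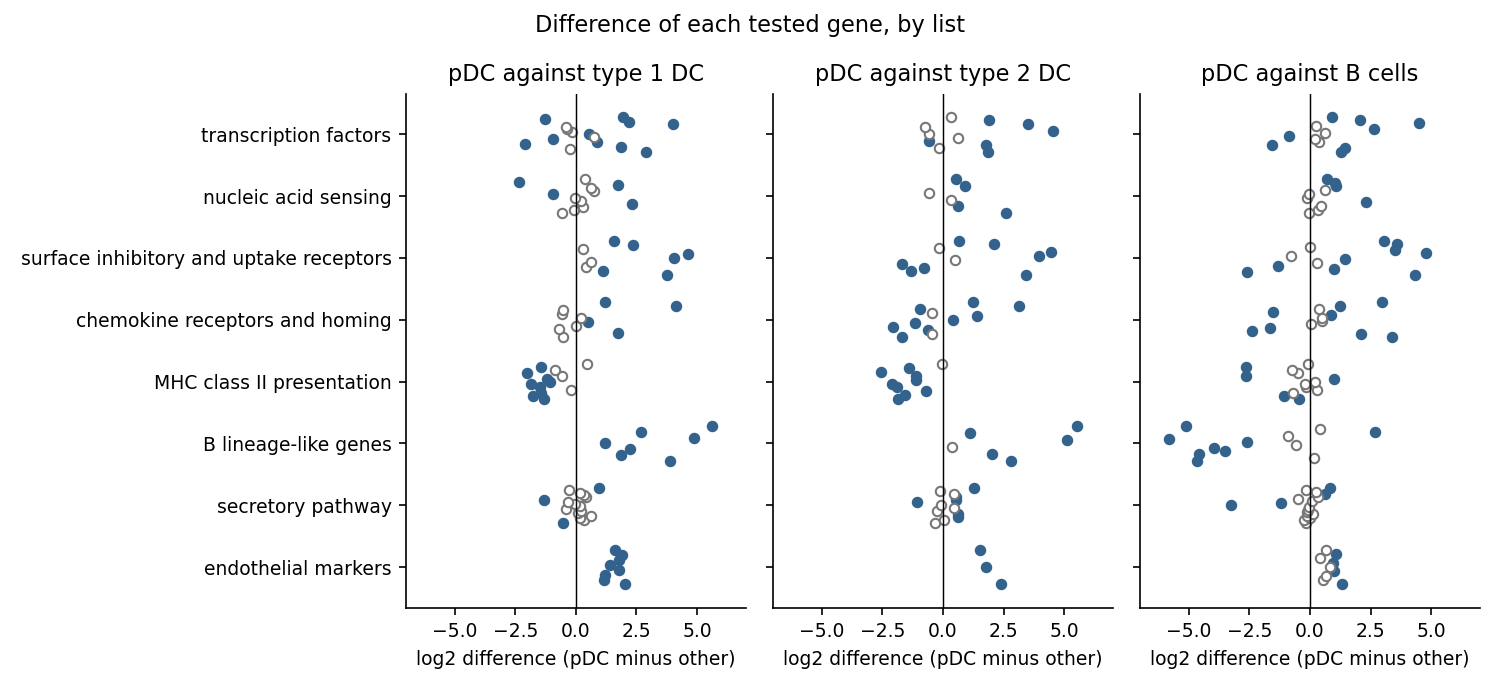
Log2 difference (pDC minus the compared class, horizontal axis) of each tested gene in 8 lists, for type 1 DC, type 2 DC and B cells; filled points passed an adjusted p of 0.05 in edgeR and open points did not. MHC class II genes lie below 0 against both DC classes except 1 gene against type 1 DC, B lineage genes lie above 0 against DC and mostly below 0 against B cells, and endothelial markers lie above 0 in all 3.

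No gene of the pDC themselves was called different between genotypes. Of 2256 genes tested with sex as a term, 0 (0%) passed an adjusted p of 0.05 in edgeR for het against wt and 0 (0%) for null against wt. An unadjusted p under 0.05 was given by 161 and 77 genes, and DESeq2 called 1 in each comparison. In simulated counts of the same libraries, 9.52% and 3.17% of genes changed by 2-fold were recovered, and 50.8% and 44.4% of those changed by 4-fold, so changes of this size could be missed. The number called for het rose to 11 without wt replicate 1. Bst2 was measured at 1243, 1811, 1262 and 1297 CPM in wt replicates 1 to 4. The het libraries gave 2665 and 3806, and null replicates 2 and 3 gave 2534 and 2389. The log2 differences of Bst2, 1.11 (SE 0.25, edgeR adjusted p = 0.584) for het and 0.73 (SE 0.27, edgeR adjusted p = 0.997) for null, did not pass. For Ly6d the wt libraries gave 446, 801, 1322 and 1023 CPM, the het libraries 1535 and 2382, and the null libraries 1478 and 1825. Its log2 differences of 1.15 and 0.72 did not pass either (edgeR adjusted p = 0.649 and 0.997). The share of all 2256 genes whose libraries lie apart by genotype is not given here, so such levels are not read as a change. Siglech, which chose the cells, lay between 888 and 1488 CPM in wt libraries, while het libraries held 1675 and 2574 and null libraries 2182 and 1484. H2-Aa overlapped in every group, with wt libraries at 1578 to 3383 CPM, het at 1698 and 2306, and null at 1988 and 2042. The pDC identity genes summed to 5343 to 7679 CPM over wt libraries, and to 9165 and 14157 over het and 9734 and 9856 over null libraries. Both comparisons share the wt libraries, and the levels of Siglech and of the identity list are not read as a change either. Red cell markers summed to 165 to 7755 CPM over wt, 137 and 246 over het and 141 and 2849 over null pDC, and monocyte and neutrophil markers to 1427 to 10895, 1376 and 1396, and 1647 and 4224. Epididymal and uterine markers were higher in both null libraries (634 and 890 CPM) than in any wt library (at most 317), as were hepatocyte markers (594 and 915 against at most 466). This was not particular to these lists. Homing genes (2323 and 2389 against at most 1981) and proliferation genes (1469 and 3590 against at most 1460) were higher too. Genes of mature DC were lower (0 in both against at least 120). The share of all lists that lie apart was not counted. The part of these lists in the values above was not tested.

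**Figure D5:**
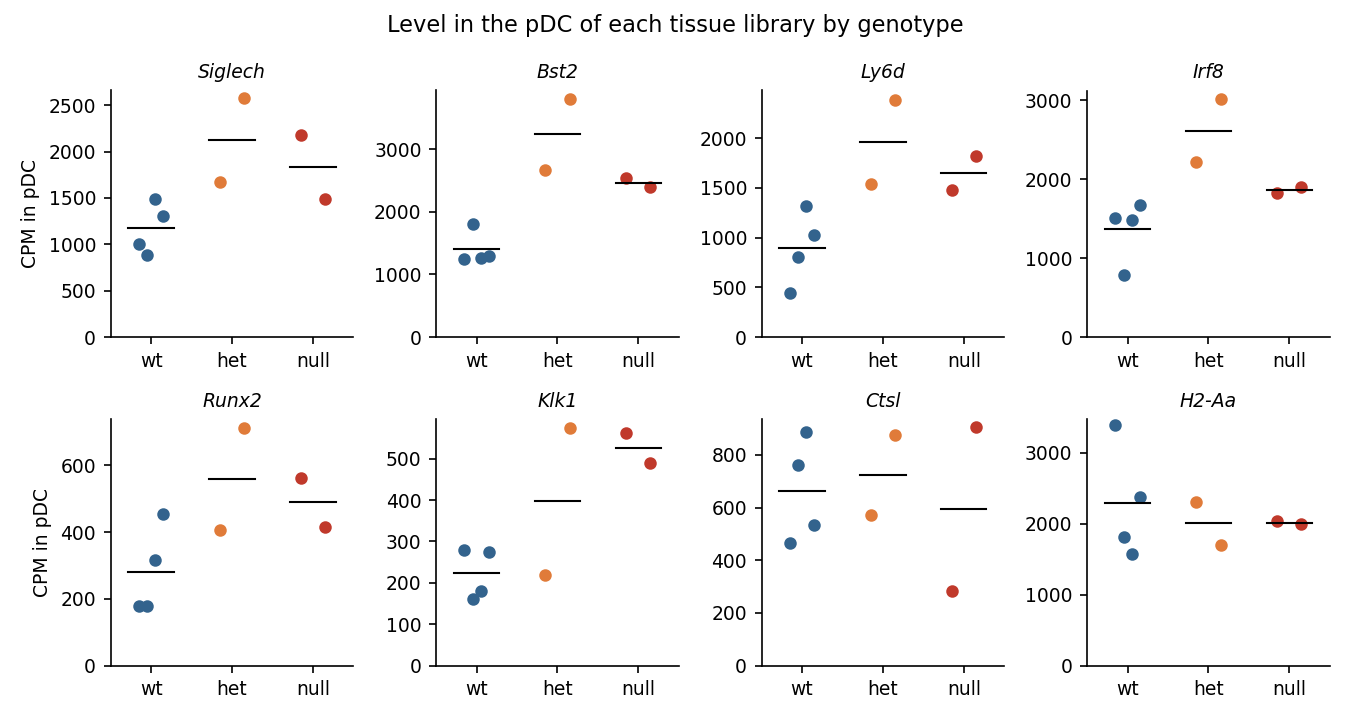
Level (CPM of summed counts, vertical axis from 0) of 8 genes in the pDC of each tissue library with at least 10 pDC, by Nalcn genotype; points are libraries and black lines are means. H2-Aa overlaps between genotypes. No difference passed the test after adjustment. The share of all genes whose libraries lie apart by genotype is not given, so levels that lie apart are not read as a change.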

How the data were processed

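Single-cell RNA libraries were made by droplet capture (10x Chromium 3′ chemistry). Per the file headers, the authors made the deposited UMI count matrices with Cell Ranger 3.0.2, while the submitters' processing notes name Cell Ranger 2.1.1, the mm10 genome and Seurat. The deposited counts are whole numbers per gene and barcode, with no normalization and no doublet removal, and strand use in counting is not given in the sources used here. Hashtag counts, which mark organs, were not used. The members and gene lists were chosen with earlier results of these data known.

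A barcode was kept from 200 detected genes upward, provided that mitochondrial UMIs did not exceed 25%. Counts were summed per library and class (at least 10 cells), scaled by TMM, filtered on low counts (filterByExpr) and tested with the quasi-likelihood test of edgeR 4.0.16 (R 4.3.3, Benjamini-Hochberg adjustment), with the library as a block between classes and labelled sex between genotypes. Shares were compared by exact two-sided permutation over libraries (scipy 1.17.1). Intervals are 95% Clopper-Pearson, and a count of 0 was given the limit of 3 counts. Fits were tested on simulated counts, in which 72.1% (type 1 DC, 3340 genes), 90.5% (type 2 DC, 1881) and 78.1% (B cells, 3665) of 2-fold changes were recovered. Doublets were left in. Scrublet (Scanpy 1.11.5), DESeq2 1.42.0, other scalings, filters and member rules, and each library left out in turn were alternatives. Beside the listed genes, the rule named up to 8 increases and 4 decreases per comparison, the largest by log2 difference among those called, with 1 direction in every library and a mean of at least 100 CPM in the higher class. Promoter windows came from RefSeq. No pair of replicates was a duplicate (chi-square per degree of freedom 2.23 to 7.32), and 30934 of 31053 matrix identifiers matched GENCODE vM21. pDC genes in ntCZC could not be tested, since no ntCZC library held a pDC. A few genes of the lists are counted but not reported here by name.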

Additional observations from a re-analysis of the deposited data

Results flagged for a closer look

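A library far from the rest of its group was looked for by Dixon's test in 73 sets of values, namely gene levels in the pDC of 4 wt tissue libraries and pDC shares in 3 groups. It was found for 10 gene levels, where chance gives about 1 in 20 sets. In wt replicate 4 the highest levels were Igkc at 7517 CPM, Bcl11a at 563, Mzb1, a plasma cell and B cell gene, at 302, Lag3 at 192 and Pax5 at 34.3. In wt replicate 1 they were Cst3 at 7556 CPM, Stat2 at 135 and Ccl17 at 93.3. In wt replicate 2 they were Bst2 at 1811 CPM and Fcmr at 8.13. Type 1 and type 2 DC of wt replicate 4 also held their highest Igkc level, and the summed interferon-stimulated genes were highest in wt replicate 2 in type 1 DC, type 2 DC and B cells too. The part of these in the values above was not tested.

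The 2 tissue libraries whose labels give no single genotype entered no comparison of groups, and pDC were found in both, at 0.301% (13 of 4323 passing cells) and 0.219% (35 of 15974).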

How the results depend on the processing

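The difference in pDC share between ntCZC and tissue ran from -0.293 to -0.63 points under 7 alternatives to the cells counted and from -0.333 to -0.423 with a library left out. No ntCZC barcode held Siglech, so the ntCZC share is 0 in all of them by construction, which says nothing about stability. Counted among dendritic cells it was not run, since ntCZC wt replicate 3 held none and the other ntCZC libraries at most 6. The shares by genotype rest on few libraries. The difference of Nalcn-deleted from wt libraries was -0.0386 points among barcodes with Ptprc, -0.0713 thinned to 1000 UMIs, -0.0717 without Scrublet doublets, -0.0839 with Ccr9, Cox6a2 or Spib required and -0.195 at the 10% mitochondrial limit, against -0.127. For null it was -0.139 with Ccr9, Cox6a2 or Spib required, -0.187 thinned to 1000 UMIs, -0.246 among barcodes with Ptprc and -0.332 at the 10% limit, against -0.219. For het it was -0.0577 at that limit and -0.0164 without the pDC that held Pecam1 and Cdh5, against -0.0343. None of these passed the test. Counted among dendritic cells only, Nalcn-deleted libraries were 1.52 points above wt, but this rests on wt replicate 5, with 0 pDC of 5 dendritic cells. Over libraries with at least 10 the difference was -2.38 for Nalcn-deleted, 0.372 for het and -5.13 for null. Against wt, het libraries were higher by 0.0446 thinned to 1000 UMIs, 0.169 among barcodes with Ptprc, 0.0368 without Scrublet doublets and 4.27 among dendritic cells. With a library left out, the het difference ran from -0.142 (without wt replicate 5) to 0.0373 (without wt replicate 2), and was 0.0135 without wt replicate 1. The causes were not tested.

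With no filter on low counts, which tests more genes, 1494, 1197 and 1586 genes were called against type 1 DC, type 2 DC and B cells, and 60 for het and 12 for null. Without Scrublet doublets 572, 528 and 694 genes were called against the 3 classes, where the main fits called 788, 631 and 815. Of these, 523, 466 and 605 were also called in the main fits. With Ccr9, Cox6a2 or Spib required the calls were 879, 648 and 705. DESeq2 called 1 gene for het and 1 for null. With a library left out, calls ran from 587 to 833 (type 1 DC), 509 to 669 (type 2 DC), 526 without wt replicate 2 to 906 (B cells), 0 to 11 (het; 11 without wt replicate 1, 3 without wt replicate 4, null replicate 2 or null replicate 3) and 0 to 0 (null). Deviations of same-numbered tissue libraries from their genotype means had correlations of -0.163 to 0.118. Het and null have 2 libraries each, whose deviations mirror each other, so these correlations cannot show whether libraries pair. With the replicate block, 0 genes were called for het and 2 for null, and the share differences were -0.273 for het and -0.333 for null (exact permutation p = 0.5 each, the smallest that 2 pairs allow, so they could not pass). Of 1966 refits of named genes, 1898 stayed called or not called as in the main fit, 36 lost the call, 30 gained it and 2 reversed. A change of direction in a gene not called in the main fit was not counted as a reversal. The 2 reversals were Ptprb against type 1 DC (-0.80) and Cdh5 against B cells (-0.16) with the pDC that held Pecam1 and Cdh5 left out. That choice reads Cdh5, whose fall is by construction. It does not read Ptprb, but it was applied to the pDC and not to type 1 DC, and the cause there was not tested. Leaving out those pDC and counting among dendritic cells, with or without a minimum of 10, were chosen after seeing the data.

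Depth limits low genes such as Tlr9, and the 12 pDC of null replicate 2, the shallowest library, carry the null comparison with those of null replicate 3.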
